A study of Ovis aries with 2 samples.

Results

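Graft endothelial cells are the cells with endothelial transcripts recovered from an acellular tissue-engineered vessel (ATEV) that had been in the carotid position of a sheep. They were chosen by a rule on summed unique molecular identifiers (UMIs), each of which stands for a captured transcript. A member had at least 1000 UMIs, at most 20% of them from the 13 mitochondrial genes, and at least 3 UMIs of PECAM1, CDH5, VWF, CLDN5, ESAM and TIE1 together. That endothelial sum also had to be at least 2 times the sum of 4 smooth muscle genes (ACTA2, MYH11, CNN1, TPM2), of 6 macrophage genes (C1QA, C1QB, AIF1, CSF1R, CTSS, CD163) and of 5 T-cell genes (CD3D, CD3E, CD3G, CD2, LCK). The rule chose 217 of the 924 graft barcodes past the UMI and mitochondrial limits, a share of 23.5% (95% exact binomial interval 20.8 to 26.4%). The graft library held 1229 barcodes and the whole series 12600.

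The study sequenced 1 droplet library from the graft, titled H2R5-ATEV, and 1 from the native carotid artery, both from sheep of 1 to 2 years and both removed 12 weeks after implantation. The graft carried no cells when it was implanted, so its cells arrived afterwards, and the labels list macrophages, endothelial and smooth muscle cells for it. The labels give neither the number of animals nor whether graft and artery came from the same one, and an aorta appears in the title of the native sample, though 2 other labels of it give the carotid artery. Cells were freed by enzymes perfused through the lumen of the clamped vessel and red cells were lysed, so the lumen side met the enzymes first. The 217 members were set against the 707 other graft barcodes past the same limits, and against 3772 native endothelial cells chosen by the same rule from 6810 native barcodes past the limits. With 1 library per tissue there is no replicate, no difference was tested, and all intervals cover counting error only.

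Endothelial cells line the lumen of every blood vessel, where they form a barrier through VE-cadherin junctions, keep blood from clotting, and set vessel tone by releasing nitric oxide, prostacyclin, endothelin and natriuretic peptide. Arterial, venous, capillary and lymphatic endothelium differ in their transcription factors and junction proteins, with Notch signalling and connexins such as connexin 40 typical of arteries. Steady laminar flow raises KLF2, KLF4 and NOS3, and transforming growth factor beta can shift endothelial cells toward mesenchymal gene expression.

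The graft library had a median of 17050 UMIs per barcode and the native library 1366. The members were deep, with a median of 32124 UMIs (1158 to 272987) and 5949 genes, against a median of 24394 UMIs in other graft barcodes and 3190.5 UMIs in native endothelial cells. Mitochondrial UMIs had a median share of 3.02% in members. The libraries shared 7 barcode sequences, and 2 members had a barcode also found in the native library. Levels are given as CPM, the UMIs of a gene per 1000000 UMIs summed over a group, so deep cells weigh more. Where cells are compared, each was thinned to 5000 UMIs, which kept 189 members, 603 other graft barcodes and 1300 native endothelial cells and left out 28, 104 and 2472.

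The values that chose the members describe them and test nothing. The endothelial sum had a median of 146 UMIs per member (3 to 777), while the medians were 1 UMI for the smooth muscle sum, 2 for the macrophage sum and 0 for the T-cell sum. Of the 217 members, 172 had at least 30 endothelial UMIs and 13 had no UMI of the other 3 lists. In all, 43 members had at least 5 macrophage UMIs, 12 at least 5 smooth muscle UMIs and 2 at least 5 T-cell UMIs, with a highest macrophage sum of 317. Close to the limits, 11 members had an endothelial sum of 3 or 4, and 10 had less than 3 times the largest other sum. Just outside, 3 barcodes had an endothelial sum of 2 and met the ratio. The ratio kept out 381 barcodes with 3 or more endothelial UMIs, with a median endothelial sum of 12 beside a median of 389 for the largest other sum. Among these, 13 had an endothelial sum at least equal to each other sum.

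**Figure D1:**
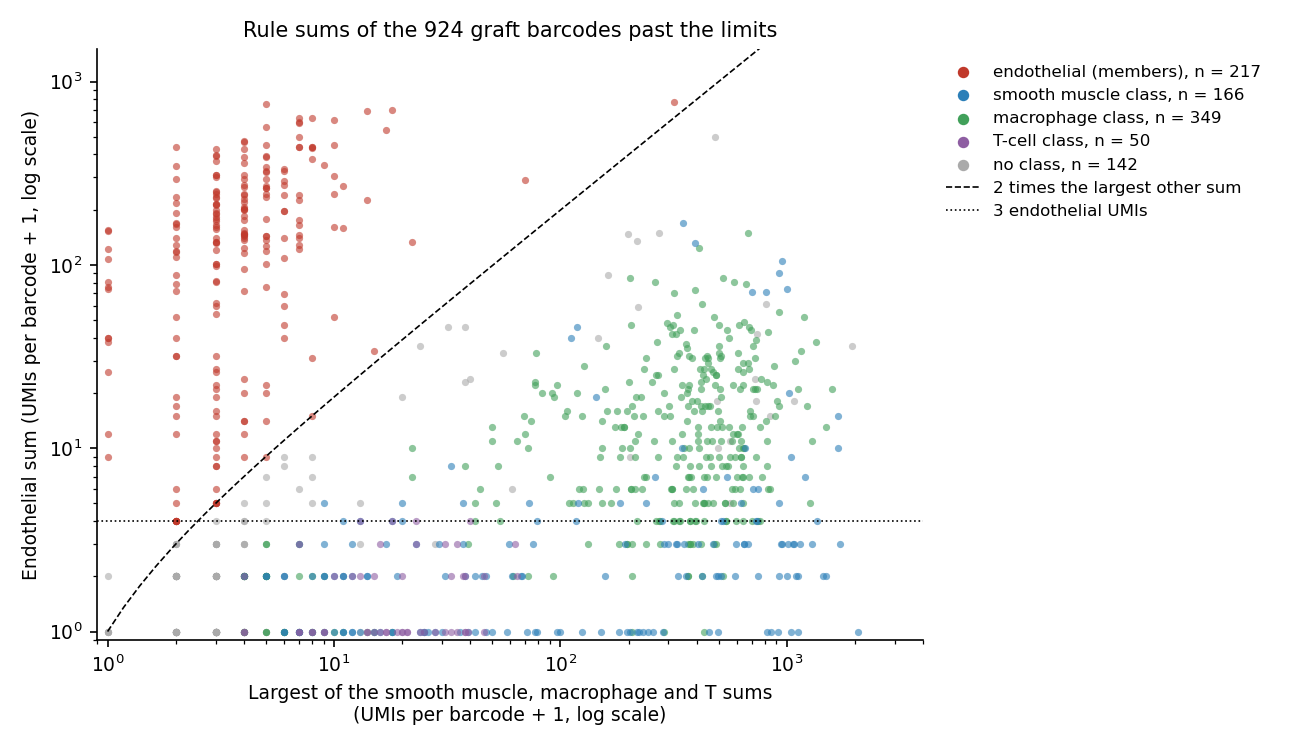
Each point is 1 of the 924 graft barcodes past the limits, placed by the largest of its smooth muscle, macrophage and T sums (horizontal, UMIs + 1, log scale) and by its endothelial sum (vertical, UMIs + 1, log scale), with the 2 limits of the rule as lines. The 217 members lie above both lines, and most stand well away from the cloud of macrophage barcodes with some endothelial UMIs.

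The label was checked against genes outside the rule. Of 28 listed endothelial genes outside the rule, 24 were in the files and all were measured, meaning at least 10 UMIs over the 2 groups compared. Their summed level was 6772 CPM in members, 780 CPM in other graft barcodes and 5025 CPM in native endothelial cells. Thinned to 5000 UMIs, a member had a median of 32 UMIs of this list (0 to 82), against 3 in other graft barcodes and 26 in native endothelial cells. Markers of other cells were read without the genes that the rule itself uses. The 4 remaining macrophage markers summed to 56.9 CPM in members against 1056 CPM in other graft barcodes, the 5 remaining T or NK markers to 4.80 against 70.7 CPM, and the 6 pericyte markers to 11.8 against 466 CPM. The 8 remaining smooth muscle markers summed to 645 CPM in members, 619 CPM of it TAGLN (transgelin), against 2186 CPM in other graft barcodes. Single defining markers outside the rule were near 0 in members, with MRC1 at 2.75 CPM, DES (desmin) at 0.294 CPM and MYOCD (myocardin) at 0.0981 CPM. Of the fibroblast list, members carried 2412 CPM against 15126 CPM in other graft barcodes.

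Against other graft barcodes, genes higher in members included the receptors ADGRL4 and TEK, the nitric oxide synthase NOS3, the sialomucin EMCN and BMPER, a regulator of bone morphogenetic protein (BMP). The rule chose the members on this same contrast, so these differences follow the choice and are a description. Of 16131 genes measured in the 2 groups, 950 (5.89%) were at least 2-fold higher in members and 1780 (11%) at least 2-fold lower, on log2 values with 5 CPM added. A gene was named by rank of that difference among genes that had a symbol and reached 50 CPM and 30 UMIs in the group where they were higher. Genes of the selection rule were not named this way.

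ADGRL4 (ENSOARG00020019870), an adhesion G protein-coupled receptor of endothelium, had a lowest value of 0, a median of 563 CPM and a highest value of 6585 CPM among the 217 cells. Its summed level was 710 CPM in members against 14.98 CPM in other graft barcodes, 47.4-fold higher (42.8 to 52.7). At 5000 UMIs, 86.8% of members had a UMI of it, against 5.70% of smooth muscle-class and 1.81% of macrophage-class graft barcodes. NOS3 (ENSOARG00020012006), the endothelial nitric oxide synthase, was as broadly present, with a median of 542 CPM per cell (0 to 3715). Summed, it stood at 764 CPM against 17.0 CPM, 45.1-fold higher (40.9 to 49.7), and 87.8% of members carried it at 5000 UMIs, against 2.72% of macrophage-class barcodes. The first quartile over cells was 289.5 CPM for ADGRL4 and 313 CPM for NOS3, so both levels came from most of the cells.

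The angiopoietin receptor TEK stood at 366 CPM in members against 10.6 CPM in other graft barcodes, 34.5-fold higher (30.5 to 39.2). PTPRB, the phosphatase that acts on TEK and VE-cadherin, was at 428 against 10.0 CPM, and MMRN2, an endothelial matrix glycoprotein, at 278 against 7.18 CPM. TEK was detected in 78.8% of members at 5000 UMIs, PTPRB in 78.3% and MMRN2 in 71.4%, and none of these genes was found in more than 2.42% of macrophage-class barcodes. The sialomucin EMCN was at 362 CPM against 7.21 CPM, 50.2-fold higher (43.3 to 58.5). EMCN was less even over cells, with a UMI in 52.4% of members at 5000 UMIs and 45.6% of its UMIs in the 10 highest cells. The adhesion molecule SELP (P-selectin), which catches leukocytes and platelets, was at 653 CPM against 22.7 CPM. It stood at 118 CPM in the 142 graft barcodes of no class, which met neither this rule nor its counterparts for the other 3 lists, and at no more than 11.5 CPM in the smooth muscle, macrophage and T classes.

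BMPER, a secreted BMP-binding protein, reached 919 CPM in members against 23.5 CPM in other graft barcodes, 39.1-fold higher (36.03 to 42.6), with 88.9% of members positive at 5000 UMIs against 2.72% of macrophage-class barcodes. IGFBP3, which binds insulin-like growth factors, was at 597 against 15.3 CPM and ITGB4, a laminin-binding integrin chain, at 272 against 7.60 CPM. GALNT18, MYZAP and TENM1 followed, at 476, 340 and 294 CPM in members and at 10.5, 8.97 and 9.67 CPM in other graft barcodes. Each of these 6 genes had a UMI in between 52.9 and 88.9% of members. The lowest share was that of IGFBP3, which was uneven over cells, with 45.3% of its UMIs in the 10 highest cells.

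A pair of genes on the list came from few cells. NPPC (ENSOARG00020011896), the C-type natriuretic peptide, averaged 403 CPM in members against 6.51 CPM in other graft barcodes, 61.9-fold higher (53.0 to 72.7), yet its median per cell was 0 and its highest value 11256 CPM. The 10 highest cells held 70.5% of its UMIs. GUCA2A, the gut hormone guanylin, was at 112 against 0.585 CPM, and 1 cell held 76.6% of its 1145 UMIs. The GUCA2A value describes that cell and not the members as a whole.

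The 10 lowest named genes were transcripts of the other graft classes. MRC1, the macrophage mannose receptor, FABP5, a fatty acid carrier, ACP5, a phosphatase of macrophages and osteoclasts, and RARRES1 stood at 2.75, 11.9, 13.5 and 9.32 CPM in members. In macrophage-class graft barcodes the same genes stood at 511, 1562, 1704 and 1164 CPM. GPR183 and RGS1, both expressed in leukocytes, were at 7.84 and 6.08 CPM in members and at 862 and 1694 CPM in T-class barcodes. SPP1, which encodes osteopontin, was at 47.7 CPM in members against 2109 CPM in other graft barcodes, and MMP9, a gelatinase, at 8.14 against 565 CPM. POSTN (periostin) and the MMP13 gene ENSOARG00020029769, a collagenase, were at 41.2 and 4.90 CPM in members and at 4408 and 768 CPM in smooth muscle-class barcodes. The files hold another gene with the symbol MMP13, at 5.20 CPM in members.

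**Figure D2:**
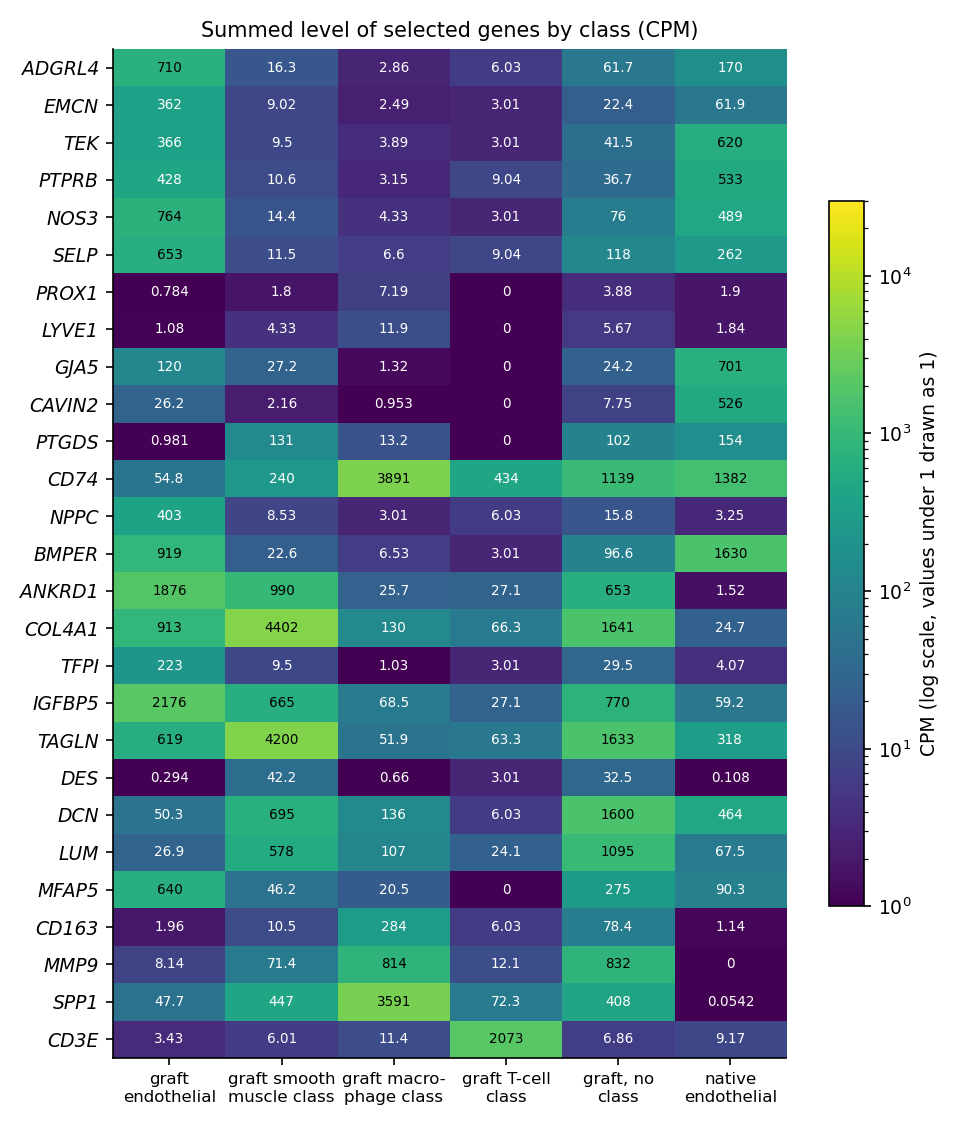
Rows are selected genes and columns are graft endothelial cells, the smooth muscle, macrophage, T and no-class graft barcodes, and native endothelial cells, with the summed level printed and coloured in CPM (log scale, values under 1 drawn as 1). ADGRL4, TEK, PTPRB, NOS3 and BMPER are highest in the 2 endothelial columns, while NPPC, ANKRD1, COL4A1, TFPI and IGFBP5 are high in the graft endothelial column and low in the native one.

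The next gene groups cover receptors, junctions and markers of vessel beds. Of 24 endothelial genes outside the rule, 21 were at least 2-fold higher in members than in other graft barcodes and none was lower (median log2 difference 3.51, against -0.05 over all 16131 measured genes). The transcription factor SOX18 was at 205 CPM in members against 6.08 CPM in other graft barcodes and the sphingosine phosphate receptor S1PR1 at 355 against 19.0 CPM. EPAS1 and FLI1, at 112 against 97.4 CPM and at 150 against 104 CPM, were within 2-fold. Of 16 junction genes 9 were higher and 1 lower (median 1.27), among them the tight junction protein F11R at 172 against 20.9 CPM.

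Of 20 arterial genes, 13 were at least 2-fold higher in members than in other graft barcodes and 2 lower (median 1.45). The connexins GJA5 and GJA4 were at 120 and 129 CPM in members and at 12.7 and 7.96 CPM in other graft barcodes. The kinase BMX was at 147 against 5.19 CPM, the Notch ligand JAG2 at 77.5 against 2.61 CPM, and the transcription factor MECOM at 896 against 46.6 CPM. CXCR4 and its ligand CXCL12 were lower in members, at 13.8 against 118 CPM and at 24.6 against 184 CPM.

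Venous and capillary lists were split. Of 9 measured venous genes 5 were higher and 4 lower (median 1.17): the ephrin receptor EPHB4 was at 48.9 CPM in members against 5.23 CPM in other graft barcodes, while NR2F2, a venous transcription factor that stromal cells also express, was at 51.8 against 155 CPM. Of 7 measured capillary genes 1 was higher and 4 lower (median -3.20), with FABP4 at 0.981 CPM in members against 119 CPM. The lymphatic markers PROX1 and LYVE1 were at 0.784 and 1.08 CPM in members. CCL21, a lymphatic chemokine, had no UMI in the 10198125 UMIs of the members, which allows a level of up to 0.294 CPM. Of 6 measured lymphatic genes none was higher than in other graft barcodes and 2 were lower (median -0.84).

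Genes of vessel tone and clotting were split between higher, similar and lower. Of 16 vasoactive genes 9 were higher and 2 lower (median 1.71), with ECE1, the enzyme that activates endothelin, at 735 CPM in members against 41.4 CPM in other graft barcodes. Its substrate gene EDN1 was at 115 against 13.02 CPM, the cyclooxygenase gene PTGS1 at 93.5 against 2.73 CPM, and prostacyclin synthase (PTGIS) at 133 against 28.7 CPM. Of 18 haemostasis genes 8 were higher and 4 lower (median 0.45). The anticoagulant genes PROCR, the protein C receptor, and TFPI, the tissue factor pathway inhibitor, were at 333 and 223 CPM in members and at 20.5 and 7.53 CPM in other graft barcodes. Tissue factor itself (F3) was at 0.784 CPM in members.

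Flow-response genes had 13 of 20 members higher and 1 lower (median 1.89), but the flow-induced factors KLF2 and KLF4 were within 2-fold of other graft barcodes, at 179 against 111 CPM and at 177 against 123 CPM. Leukocyte adhesion and activation genes were split, 6 higher and 4 lower of 21 (median 0.07). OLR1, the oxidised LDL receptor, was at 1677 CPM in members against 169 CPM in other graft barcodes, whereas CCL2 was at 9.12 against 323 CPM and CD44 at 241 against 1697 CPM. BMP and TGF beta genes were higher in 14 of 19 cases and lower in none (median 1.32), with ID1, a target of BMP signalling, at 530 against 30.3 CPM and the ligand gene BMP6 at 574 against 26.9 CPM.

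Matrix genes divided by type. Of 16 basement membrane genes 8 were higher and 2 lower in members (median 0.91), with the heparan sulfate proteoglycan gene HSPG2 at 897 CPM in members against 189 CPM in other graft barcodes and COL8A1 at 2417 against 940 CPM. COL4A1 was below other graft barcodes but within 2-fold, at 913 against 1713 CPM, and stood at 4402 CPM in the smooth muscle class. Of 26 mesenchymal genes 2 were higher and 13 lower (median -1.01). FN1 (fibronectin) was among the 2, at 8574 against 3854 CPM, while COL1A1 was at 310 against 5155 CPM and COL3A1 at 398 against 3872 CPM. MFAP5, a microfibril protein listed here as a fibroblast marker, was at 640 against 61.8 CPM and so on the members' side.

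None of 13 cell cycle genes differed by 2-fold from other graft barcodes (median 0.15). At 5000 UMIs, 39 of 189 members (20.6%, 15.1 to 27.1%) had at least 2 cell cycle UMIs, against 121 of 603 other graft barcodes (20.1%, 16.9 to 23.5%). Of 23 glycolysis and hypoxia genes 3 were higher and 3 lower (median -0.16). Of 15 interferon genes none was higher and 5 lower (median -0.83), and of 13 antigen presentation genes 1 was higher and 6 lower (median -0.56). CD74, the class II invariant chain, stood at 54.8 CPM in members against 2302 CPM in other graft barcodes, and at 3891 CPM in the macrophage class.

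**Figure D3:**
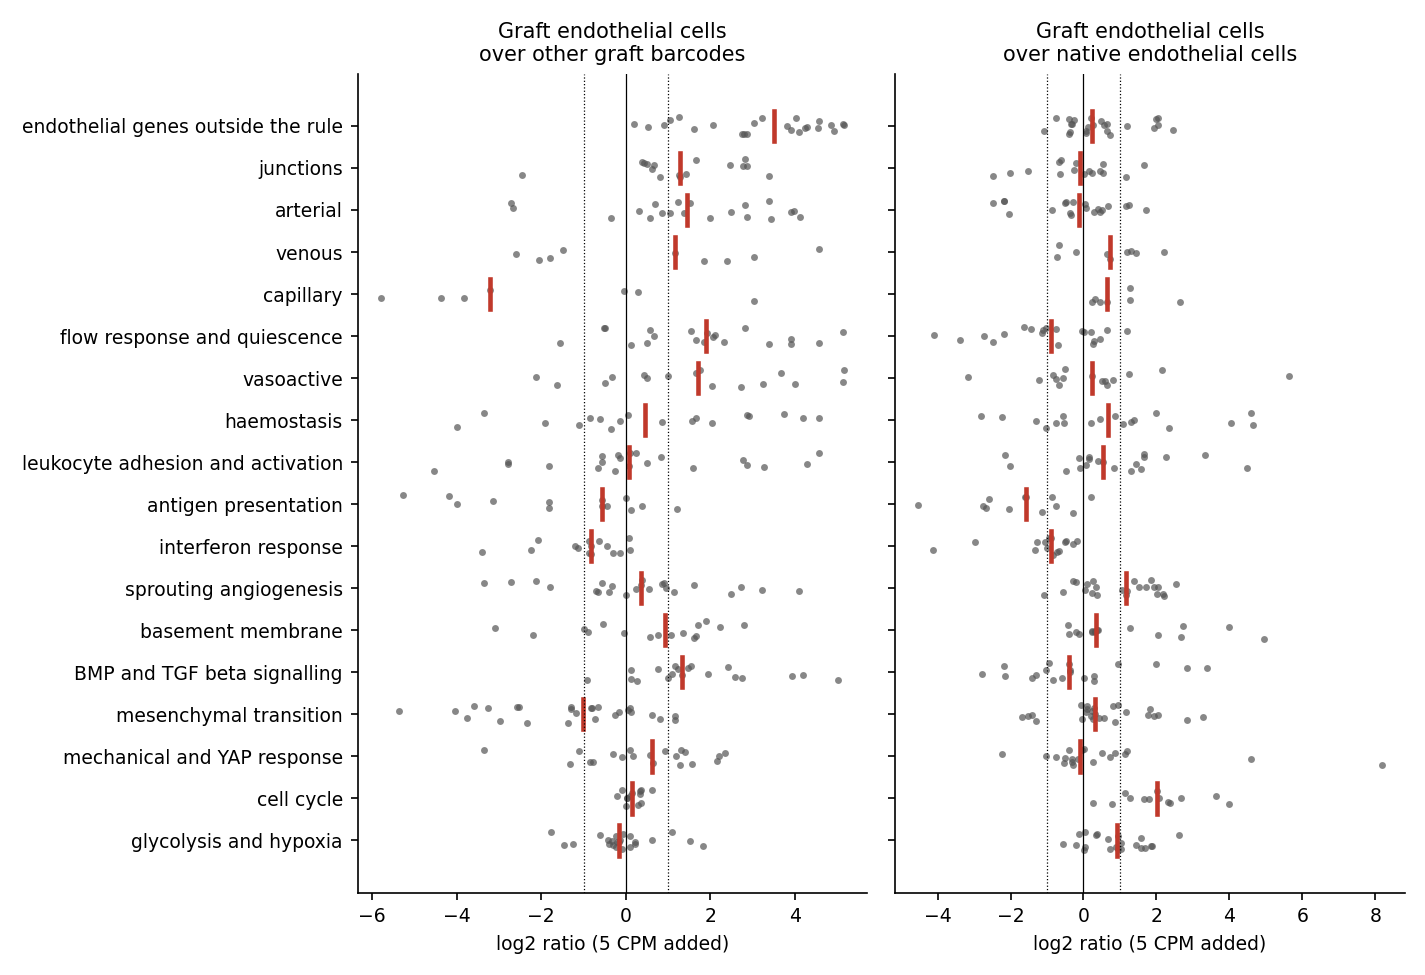
Grey points are the log2 differences of single genes (5 CPM added) and red bars the list medians, for graft endothelial cells over other graft barcodes on the left and over native endothelial cells on the right, with dotted lines at 2-fold. Endothelial genes outside the rule have a median of 3.51 on the left and 0.22 on the right, and cell cycle genes 0.15 on the left and 2.02 on the right.

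The 15 genes that varied most from cell to cell within the group were ranked next. Variation was read as the variance over the mean at 5000 UMIs, which is near 1 for a gene at an equal level in all cells, among genes seen in at least 10 members. IGFBP5, a binder of insulin-like growth factors, had the highest value, 59.95, with a UMI in 29.6% of members, a median of 0 and a highest count of 118. The highest 10% of members held 86.4% of its thinned UMIs. DCN (decorin) followed at 58.8 with a UMI in 6.35% of members, but 134 of its 151 thinned UMIs lay in 3 members, those with at least as many fibroblast as endothelial UMIs described with subcluster 3. Without these 3 the value of DCN was 3.40, and COL3A1 had 4.11, COL1A1 4.53 and EBF1 2.59, so these 4 genes rank here through them. STC1 (stanniocalcin) had a value of 31.0 with a UMI in 12.7% of members.

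Other variable genes were present in most members and differed in amount. LTBP1, which stores latent TGF beta in the matrix, had a value of 26.3, a median of 2 UMIs and a highest count of 93. S100A4 had a value of 25.2, a median of 2 and a highest count of 100, and the matrix protease gene ADAMTS1 a value of 22.02, a median of 1 and a highest count of 71. FN1 had a value of 22.4 but a UMI in 99.5% of members, with a median of 44 and a highest count of 134, so its variation was in amount and not in presence. The rest of the 15 most variable genes were COL3A1 at 36.3, CXCL8 (interleukin 8) at 34.4, MGP (matrix Gla protein) at 30.8, or 18.5 without the 3 members, COL1A1 at 26.1, NPPC at 25.1, EBF1 at 23.9, MAP9 at 23.0 and FTH1 (ferritin heavy chain) at 21.7.

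Clustering the members alone gave 4 subclusters. UMIs of each gene and cell were divided at random into 2 parts, the cells were clustered on the first part, and all levels by subcluster come from the second part unless stated. The 2 parts still share the cells, so a subcluster against the others is a description. Subcluster 0 held 103 members (47.5%) with a median of 62721 UMIs, subcluster 1 held 49 (22.6%) with 30549, subcluster 2 held 42 (19.4%) with 13145 and subcluster 3 held 23 (10.6%) with 7604. Depth therefore moves with the subclusters, and its part in them was not tested beyond the thinned values below. Subcluster 0 gave 7197951 of the 10198125 UMIs, so the summed levels above lean toward it.

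Subcluster 0 was low in arterial genes, and more of its mesenchymal and cell cycle genes were higher than lower. Set against the other members, 594 of 13245 measured genes (4.48%) were at least 2-fold higher in it and 652 (4.92%) at least 2-fold lower. Of 20 arterial genes 14 were lower and 1 higher, of 24 measured mesenchymal genes 7 were higher and 3 lower, and of 13 cell cycle genes 7 were higher. A few cells gave much of the cell cycle sum, with 86.1% of the members' TOP2A UMIs in 10 cells. At 5000 UMIs, 2 or more cell cycle UMIs were found in 28 of 91 cells of subcluster 0, 5 of 48 of subcluster 1 and 10 of 31 of subcluster 2, so subcluster 0 was not above subcluster 2 at equal depth. The leading genes of subcluster 0 were RGS7, a regulator of G protein signalling, at 1095 CPM against 36.01 CPM in the other members, RNF150 at 278 against 4.67 CPM and PAK5, a p21-activated kinase, at 176 against 1.33 CPM. SCRG1 at 118 against 6.001 CPM, the plasminogen activator gene PLAT at 159 against 2.00 CPM and ESM1 (endocan) at 116 against 4.001 CPM came next. PLAT was detected in 12.6% of the cells of subcluster 0, so few of them carried that level.

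Subcluster 1 was highest in arterial genes. Against the other members, 745 of 13245 genes (5.62%) were at least 2-fold higher in it and 625 (4.72%) at least 2-fold lower. Of 20 arterial genes 15 were higher and 1 lower, of 15 interferon genes 7 were higher, and of 24 mesenchymal genes 10 were lower. NPPC was at 2049 CPM against 47.9 CPM in the other members, the proprotein convertase gene PCSK5 at 613 against 24.4 CPM, and THSD4 at 227 against 12.0 CPM. PCSK5 had a UMI in 93.9% of the cells of subcluster 1 against 22.02% of other members, counted at unequal depths. STC1, GADL1 and GUCA2A also led, at 1011, 132 and 597 CPM in subcluster 1 and at 11.7, 1.20 and 0.239 CPM in the other members, but 1 cell gave 57.7% of its STC1 and 1 cell gave 77.1% of its GUCA2A.

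Subcluster 2 had few genes of its own. Of 13245 genes 100 (0.755%) were at least 2-fold higher in it than in the other members and 1021 (7.71%) at least 2-fold lower. ELN (tropoelastin) stood at 7036 CPM against 1887 CPM in the other members, and 1 cell gave 35.0% of that. Over all UMIs ELN was at 6948 CPM in the 42 cells and at 5108 CPM without that cell, and at 5000 UMIs its median was 17 UMIs in subcluster 2 against 7, 9.5 and 4 in subclusters 0, 1 and 3. FBLN5 (fibulin 5), needed for elastic fibre assembly, was at 106 CPM in subcluster 2 and at 13.9, 94.3 and 81.6 CPM in subclusters 0, 1 and 3. The growth factor gene BMP2 was at 306 against 51.0 CPM, SPARCL1 at 539 against 169 CPM and PTGS1 at 281 against 79.7 CPM. The heparan sulfate sulfotransferase gene HS3ST1 was at 96.7 against 13.6 CPM. In subcluster 2 a single cell gave 25.9, 18.4, 22.7 and 18.2% of the UMIs of these genes. They were found in 38.1, 61.9, 50 and 23.8% of its cells and in 37.1, 62.3, 57.1 and 14.3% of other members, counted at unequal depths.

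Subcluster 3 was shallow, with a median of 11 endothelial UMIs and a median mitochondrial share of 7.06%, and carried fibroblast transcripts. Of 13245 genes 1147 (8.66%) were at least 2-fold higher in it than in the other members and 3599 (27.2%) at least 2-fold lower. All 13 cell cycle genes were lower and 9 of 11 fibroblast markers higher. In the second part 1 UMI stood for 8.16 CPM in subcluster 3 and for 0.278 CPM in subcluster 0. Genes with few UMIs can thus pass 2-fold in subcluster 3 through counting error, and its part in these counts was not tested. DCN and LUM (lumican), both proteoglycans of fibroblasts, led it at 1551 and 800 CPM in subcluster 3 and at 14.5 and 10.0 CPM in other members. PI16, another fibroblast gene, was at 628 against 0.603 CPM, and CCSER1 at 555 against 2.61 CPM. Of its 23 members, 3 had at least as many UMIs of 6 fibroblast genes as of the rule's endothelial genes. Those 3 had endothelial sums of 3 to 7 and gave 98.4% of the subcluster's DCN and 100% of its PI16.

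In the remaining 20 members of subcluster 3, DCN was at 30.5 CPM and CCSER1 at 672 CPM, and 14 of the 20 cells had a CCSER1 UMI. These 20 cells had 0 to 2 fibroblast UMIs each and endothelial sums of 3 to 71. Several of their levels differed from those of the other members. Over all UMIs, MECOM was at 2214 CPM in the 20 cells, 874 CPM in members of subclusters 0 to 2 and 1645 CPM in native endothelial cells. BMP6 was at 1354, 561 and 1101 CPM in the same groups, CD74 at 422, 47.7 and 1382 CPM, and CAVIN2, a caveolar coat protein gene, at 173, 23.4 and 526 CPM. MECOM and BMP6 were above the native level in these 20 cells, CD74 and CAVIN2 were below it, and subcluster 1 had MECOM at 1813 CPM. GJA5 and BMX, at 321 and 428 CPM in the 20 cells, were at 495 and 499.5 CPM in subcluster 1. Members of subclusters 0 to 2 had 117 and 142 CPM of them, and native cells 701 and 687 CPM. CCSER1 was at 2.71 CPM in those members and at 710 CPM in native cells. PTGS2, TGFBR2 and LTBP4 also lay between these 2 groups, at 305, 377 and 310 CPM in the 20 cells. COL1A1 and COL3A1, at 199 and 244 CPM, lay below both groups, as did PI16, PDGFRA and SFRP2 with no UMI. No barcode of subcluster 3 was shared with the native library, and the cause of these levels was not tested. With subcluster 3 left out, the other 194 members had 955 genes at least 2-fold above other graft barcodes and 1805 at least 2-fold below.

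The plot of levels by subcluster shows the arterial genes as a block. GJA5 was at 12.2, 509, 167 and 261 CPM in subclusters 0 to 3 and at 701 CPM in native endothelial cells. BMX was at 36.1, 496, 281 and 302 CPM in the subclusters and at 687 CPM in native cells, and the Notch ligand DLL4 at 1.94, 140, 17.6 and 8.16 CPM and at 5.10 CPM. In summed CPM subcluster 1 was highest of the 4 in each of these genes, and for DLL4 it was also above the native cells. At 5000 UMIs BMX averaged 1.92 UMIs per cell in subcluster 1 and 2.39 in subcluster 2, but its medians were 1.5 and 1 UMIs. BMX was found in 37 of 48 cells of subcluster 1 and 17 of 31 of subcluster 2. At equal depth the order of subclusters 1 and 2 for BMX therefore depends on the measure. SEMA3G, an arterial semaphorin, was at 25.8, 580, 215 and 24.5 CPM and at 209 CPM in native cells. The tight junction gene CLDN5, part of the rule, was at 33.9, 672, 290 and 81.6 CPM and at 457 CPM in native cells, so the lowest CLDN5 was in the deepest cells.

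A different group of genes was highest in subcluster 0. OLR1 was at 2208, 107, 1068 and 40.8 CPM in subclusters 0 to 3 and at 70.1 CPM in native endothelial cells, and S100A4 at 3197, 592, 404 and 531 CPM and at 245 CPM. The TGF beta receptor gene TGFBR1 was at 579, 93.3, 85.7 and 147 CPM and at 56.1 CPM in native cells. Subclusters 0 and 2 shared ANKRD1, a target of YAP signalling, at 2187 and 3262 CPM, while subclusters 1 and 3 had 75.9 and 49.0 CPM and native cells 1.52 CPM. LTBP1 was at 273, 5062, 1648 and 735 CPM in subclusters 0 to 3 and at 117 CPM in native cells.

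**Figure D4:**
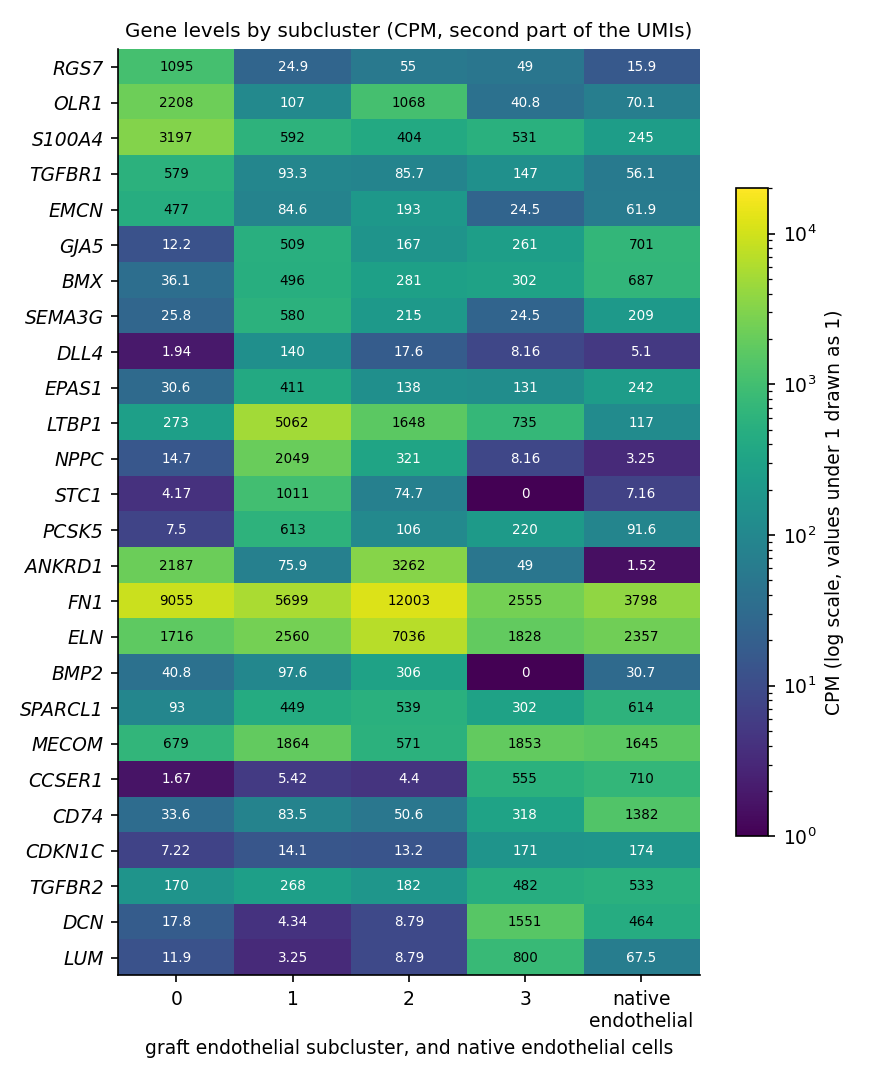
Rows are selected genes and columns are the 4 subclusters of graft endothelial cells, in CPM of the UMIs not used for clustering, and native endothelial cells in CPM of all their UMIs (log scale, values under 1 drawn as 1). GJA5, BMX and SEMA3G are highest among the subclusters in subcluster 1, OLR1 and S100A4 in subcluster 0, and DCN and LUM in subcluster 3, where 3 cells give 98.4% of both.

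The arterial, mesenchymal and leukocyte sums were also compared at equal depth, in draws from all UMIs of a cell and not from the second part alone. At 5000 UMIs, with 91, 48, 31 and 19 cells in subclusters 0 to 3, the arterial sum per cell had medians of 7, 26.5, 13 and 14 UMIs. Its range was 0 to 20 in subcluster 0 and 9 to 53 in subcluster 1, so the 2 groups overlap between 9 and 20. Native endothelial cells had a median of 25 (1 to 98). The mesenchymal sum had medians of 136, 63, 105 and 34 UMIs, with 42 to 253 in subcluster 0 and 16 to 193 in subcluster 1. The leukocyte activation sum had medians of 34, 11.5, 15 and 8 UMIs.

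Single genes differed in how many cells carried them. GJA5 had a UMI in 36 of 48 cells of subcluster 1, 16 of 31 of subcluster 2, 9 of 19 of subcluster 3 and 4 of 91 of subcluster 0, against 1154 of 1300 native endothelial cells. OLR1 was found in 88 of 91 cells of subcluster 0, 7 of 48 of subcluster 1, 17 of 31 of subcluster 2 and 4 of 19 of subcluster 3, against 200 of 1300 native cells. ANKRD1 was found in 69 of 91, 6 of 48, 17 of 31 and 4 of 19 cells of subclusters 0 to 3 and in 9 of 1300 native cells. LTBP1 was in all 48 cells of subcluster 1, with a median of 20 UMIs against 1 in subcluster 0. NPPC was found in 30 of 48 cells of subcluster 1, 12 of 31 of subcluster 2 and 5 of 91 of subcluster 0, against 6 of 1300 native cells and 3.02% of macrophage-class graft barcodes. Counts reached 63 NPPC UMIs in subcluster 1 and 7 in subcluster 0.

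**Figure D5:**
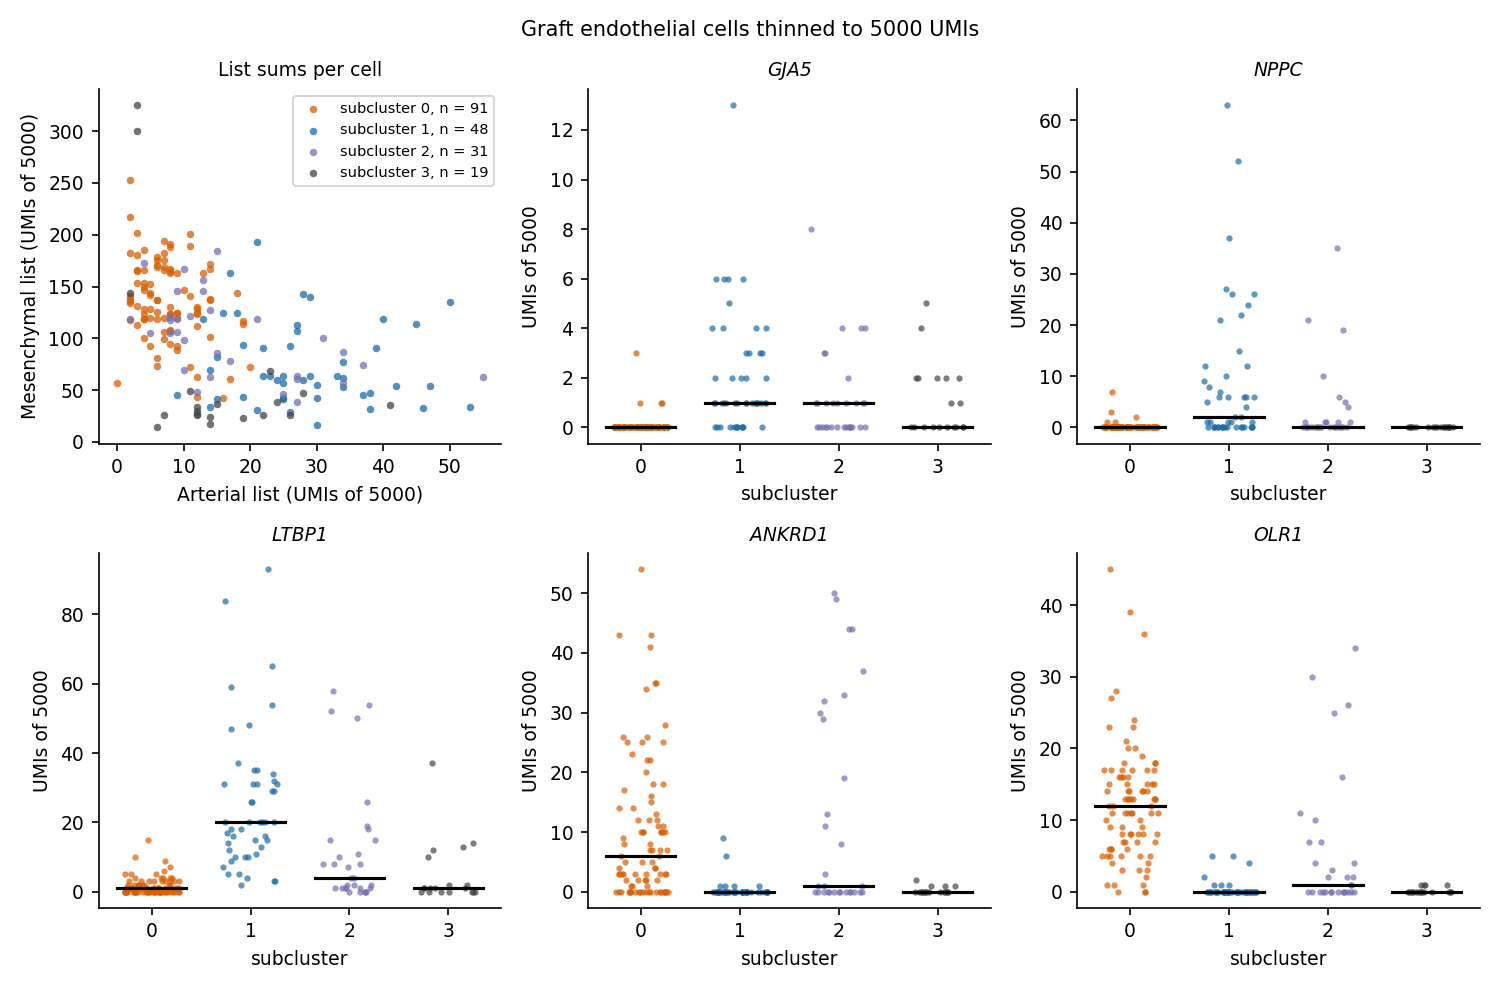
Each point is a graft endothelial cell thinned to 5000 UMIs, coloured by subcluster; the first panel sets the mesenchymal list sum against the arterial list sum (UMIs of 5000) and the others give UMIs of GJA5, NPPC, LTBP1, ANKRD1 and OLR1 with the median as a bar. Cells of subcluster 0 have arterial sums of 0 to 20 and mesenchymal sums of 42 to 253. The 5 genes differ in level between subclusters 0 and 1, with cells of each overlapping. For NPPC, 30 of 48 cells of subcluster 1 and 5 of 91 of subcluster 0 had a UMI. The thinned counts include UMIs used for clustering.

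Across the 189 thinned members the arterial and mesenchymal sums ran against each other, with a Spearman rho of -0.57. These cells share a library, a depth of 5000 UMIs and a fixed total, so a higher share for some genes lowers others, and the value is a description. It was -0.43 without FN1, VIM and S100A4, the most abundant mesenchymal genes, and -0.58 without subcluster 3 (n = 170). It was -0.54 in the 95 cells deepest before thinning and -0.42 in the 94 shallower ones. The arterial sum had rho = -0.32 with total UMIs before thinning, and the mesenchymal sum 0.38. For pairs of genes rho was 0.50 for BMX with GJA5, 0.62 for OLR1 with ANKRD1, 0.54 for NPPC with LTBP1 and -0.61 for BMX with OLR1.

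Other settings, all chosen after the clusters had been seen, divided the members differently. Subcluster 3 was found again most fully, with 22 or 23 of its 23 cells in the best-matching cluster under each of 6 settings. Clustering the second part of the UMIs gave 5 clusters, whose best match kept 56 of 103, 46 of 49 and 20 of 42 cells of subclusters 0 to 2 (adjusted Rand index 0.52, where identical clusterings give 1). All UMIs gave 5 clusters that kept 69, 26 and 21 cells (0.45), a resolution of 1 gave 9 that kept 43, 21 and 21 (0.39), and cells thinned to 1000 UMIs gave 4 that kept 82, 41 and 29 (0.55). Without the genes of all lists the index was 0.76, and at a resolution of 0.3 it was 0.83. The borders between subclusters 0, 1 and 2 therefore depend on the setting.

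Graft and native endothelial cells were chosen by the same rule and differed in defined groups of genes. Of 15225 measured genes 1065 (7%) were at least 2-fold higher in the graft cells and 898 (5.9%) at least 2-fold lower. These counts and their balance depend on the setting: with 1 CPM added in place of 5 they were 1734 and 1737, and after thinning to 1000 UMIs 1764 genes were lower and 38.3% of the genes past 2-fold were higher, against 54.3% here. The rule's endothelial list was at 3925 CPM in graft members and 3685 CPM in native cells. Both groups were chosen on these genes, so the 2 values only describe them. The median log2 difference over all genes was -0.02, on values scaled to equal totals. By subcluster, Spearman's rho of levels with the native cells was 0.72, 0.82, 0.76 and 0.76 for subclusters 0 to 3, over the 6496 genes of at least 20 CPM in native cells, which are not independent of each other. Subcluster 1 had 86.6% of those genes within 2-fold of the native level, against 78.0%, 77.7% and 67.5% in subclusters 0, 2 and 3. The sums held 7197951, 1845861, 909372 and 244941 UMIs in subclusters 0 to 3, so counting error was largest in subcluster 3. Its part in these shares and rho values was not tested.

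The arterial list summed to 2477 CPM in members against 4948 CPM in native endothelial cells, and it differed by subcluster. Counts of subcluster genes against native cells use all UMIs of the cells. Over all members 3 of 20 arterial genes were at least 2-fold higher than in native cells and 4 lower (median -0.12). In subcluster 0, where 1274 of 15031 genes (8.48%) were higher than in native cells and 1212 (8.06%) lower, no arterial gene was higher and 7 were lower (median -0.41). In subcluster 1, where 881 of 14539 genes (6.06%) were higher and 753 (5.18%) lower, 9 arterial genes were higher and 1 lower (median 0.84). In subcluster 2 the arterial count was 3 higher and 5 lower beside 654 (4.54%) and 1734 (12%) of 14414 genes, and in subcluster 3 it was 1 higher and 8 lower beside 889 (6.19%) and 2929 (20.4%) of 14372 genes. The summed GJA5 level, 120 CPM in members against 701 CPM in native cells, thus joins 12.2 CPM in subcluster 0 to 509 CPM in subcluster 1.

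Flow-response and quiescence genes had list medians below native cells in the sum and in each subcluster. Of 20 genes 1 was higher and 10 lower over all members (median -0.89), and the lower count was 11, 4, 8 and 10 in subclusters 0 to 3 (medians -1.08, -0.28, -0.46 and -1.01). KLF2 was at 129, 313, 251 and 131 CPM in the subclusters and at 565 CPM in native cells. The cell cycle inhibitor CDKN1C was at 12.1 CPM in members and 174 CPM in native cells, and NR4A1, a nuclear receptor of the immediate early response, at 87.2 and 602 CPM. Cell cycle genes went the other way, with 11 of 13 higher over all members (median 2.02), and 11, 8 and 7 higher in subclusters 0, 1 and 2. In subcluster 3 none was higher and 3 were lower. These counts use summed levels, to which few cells can give much, and 10 cells held 86.1% of the members' TOP2A UMIs. At 5000 UMIs, the share with 2 or more cell cycle UMIs was 20.6% of members against 9.46% of native cells (7.93 to 11.2%), and the intervals cover counting over cells of 1 library each. In another draw the share was 30.8, 10.4, 32.3 and 5.26% in subclusters 0 to 3. Subcluster 1 thus lay inside the native interval at equal depth, though 8 of its summed genes were higher.

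Clotting and adhesion genes differed by gene. The haemostasis list had 8 of 18 genes higher and 4 lower than in native cells (median 0.66). TFPI was at 223 CPM in graft members against 4.07 CPM in native cells, 54.9-fold higher (43.6 to 70.1), and at 212, 314, 185 and 40.8 CPM in subclusters 0 to 3, so its level did not follow the arterial genes. THBS1 (thrombospondin 1) was at 481, 55.3, 24.2 and 114 CPM in the subclusters against 9.82 CPM in native cells, and thrombomodulin (THBD) at 155 CPM in members against 324 CPM. Of 19 leukocyte genes 8 were higher over all members and 2 lower (median 0.53), with 8 higher in subcluster 0, 8 in subcluster 2, 2 in subcluster 3 and none in subcluster 1. Sprouting genes had 13 of 23 higher and 1 lower over all members (median 1.17), with the growth factor receptor KDR at 85.1 against 18.5 CPM and NRP1 at 234 against 53.8 CPM. The higher count was 10, 7, 5 and 1 in subclusters 0 to 3, and the lower count 1, 4, 3 and 5. The sprouting medians by subcluster were 0.75, 0.53, -0.14 and -0.24.

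Antigen presentation genes were lower than in native cells in 8 of 12 cases and higher in none (median -1.59), and 9, 6, 8 and 7 of them were lower in subclusters 0 to 3. B2M was at 21.7 CPM in members against 157 CPM in native cells and Ovar-DRA, a class II chain, at 1.18 against 34.2 CPM. Interferon genes were lower in 6 of 15 cases and higher in none (median -0.90), and in 11, 4, 8 and 7 cases by subcluster. CXCL10, an interferon-induced chemokine, was at 10.7 against 267 CPM, and at 5000 UMIs it was found in 2.12% of members against 7.92% of native cells, so few cells carried it in either group. At 5000 UMIs a member had a median of 2 antigen presentation UMIs, against 9 in native cells.

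Glycolysis and hypoxia genes, over all members, were at least 2-fold higher than in native cells in 9 of 22 cases and lower in none (median 0.92), with HIF1A at 301 CPM in members against 45.2 CPM and GAPDH at 528 against 174 CPM. The higher count was 12, 6, 5 and 1 in subclusters 0 to 3, and the lower count 0, 1, 0 and 4 (medians 1.10, 0.46, 0.26 and -0.40). Across thinned members this list's sum had rho = 0.49 with total UMIs before thinning. The basement membrane list had 6 of 16 higher and none lower (median 0.34), with LAMC1 at 512 against 76.4 CPM. BMP and TGF beta genes were split, 3 higher and 6 lower of 19 (median -0.40): LTBP1 was at 1265 CPM in members against 117 CPM, and ID2 at 174 against 1223 CPM. Mesenchymal genes had 7 of 26 higher and 4 lower (median 0.31), with 9 higher and 4 lower in subcluster 0. Of 25 measured, 3 were higher and 7 lower in subcluster 1, and 3 higher and 4 lower in subcluster 2. Subcluster 3 had 13 of 25 higher and 3 lower. The 3 members rich in fibroblast UMIs gave 93.8% of its COL1A1 and 95.1% of its COL3A1. The medians were 0.48, -0.16, 0.24 and 1.12 in subclusters 0 to 3.

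Of the genes furthest above the native cells, ANKRD1 was at 1876 CPM in members against 1.52 CPM, and it also reached 990 CPM in the graft smooth muscle class. COL12A1 was at 770 against 12.4 CPM, FAM171B at 336 against 2.93 CPM and MYO10, an unconventional myosin of filopodia, at 326 against 1.74 CPM. RGS7 was at 792 against 15.9 CPM and at 1057 CPM in the graft smooth muscle class. IGFBP5 was at 2176 against 59.2 CPM, with 71.9% of its graft UMIs in 10 cells, and COL4A1 at 913 against 24.7 CPM. TFPI and NPPC were high in the members and under 10 CPM in the smooth muscle and macrophage classes of the graft, whereas ANKRD1, COL12A1, RGS7 and COL4A1 were not confined to members.

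The genes furthest below the native cells were CCSER1 at 15.6 CPM in members against 710 CPM, PTGDS, a prostaglandin D synthase, at 0.981 against 154 CPM, and FGL2 at 13.1 against 436 CPM. CD74, CXCL10 and CAVIN2 followed, the last at 26.2 against 526 CPM, with B3GALT1 at 1.86 against 126 CPM, UNC5C at 5.98 against 191 CPM, ZBTB16 at 0.981 against 94.6 CPM and KIF26B at 10.0 against 229 CPM. CCSER1 was at 1.67, 5.42 and 4.40 CPM in subclusters 0, 1 and 2 and at 555 CPM in subcluster 3. The native library was shallower, a different tissue and possibly a different animal, and these cannot be told apart from the graft in 1 library each.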

How the data were processed

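Single cells of 1 graft and 1 native artery library were captured with 10x Genomics chemistry, per the labels' protocols. The deposited values are UMI counts, whole numbers in a filtered matrix per library, and Cell Ranger 7.2.0 made them, per the file headers. Seurat 5.0.0, R 4.3.3 and bcl2fastq 2.20.0.422 stand in the submitters' processing notes with no stated role. The genome build is not given in the sources used here. Of 21890 genes in each matrix, 6435 carry no symbol.

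Counts were summed over the barcodes of a group and scaled to CPM. Ratios carry exact conditional binomial intervals, shares exact Clopper-Pearson intervals, both at 95% and for counting error only. Differences were read as log2(CPM + 5) among genes with at least 10 UMIs in both sums together, with 2-fold as the limit. Graft classes of other cells follow the same rule with the lists exchanged. Named genes were the 15 highest and 10 lowest against other graft barcodes, the 10 highest and 10 lowest against native endothelial cells, the 15 most variable, 6 per subcluster, and leading members of each list, without mitochondrial, ribosomal, haemoglobin, immunoglobulin or rule genes. Values of list genes by subcluster, and the 20 members of subcluster 3, were chosen for the text after they had been seen. A result this rule selects is not reported here. Subclusters used scanpy 1.11.5 (2000 variable genes, 20 components, 15 neighbours, Leiden resolution 0.5) on a binomial split of the UMIs. No doublet was removed in the values reported. Thinning was drawn anew for each table, so counts of cells with a UMI can differ slightly between tables. The calculations were tested on simulated data. The members and gene lists were chosen with earlier results of these data known. With 1 library per tissue no test was possible.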

Additional observations from a re-analysis of the deposited data

How the results depend on the processing

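No paired analysis was possible because each tissue has 1 library and no test was made, and no library could be left out. All 610 alternative values of genes named by rank against the 2 reference groups kept their direction, but these genes were picked for large differences. Of 729 alternative list medians 0 were counted as reversed. Only lists whose reported median was at least 2-fold from equal could be counted so. Smaller list medians were not checked for a change of direction. Of the 5 main counts that moved by over 1.5 times or beyond their interval, the endothelial share was 16.6% (153 of 924) with the rule applied after thinning to 1000 UMIs, and the lower count against other graft barcodes was 2797 with 1 CPM added. Against native endothelial cells, 1 CPM added gave 1734 higher and 1737 lower, and values thinned to 1000 UMIs gave 1764 lower; 38.3% of the genes past 2-fold were then higher, against 54.3% in the values reported. The cause was not tested. The other 57 main values stayed within these limits. The median gene against other graft barcodes was at -0.16 after thinning to 1000 UMIs and at -0.11 with cells weighted equally, so small differences are relative to that shift. With subcluster 3 left out, added after seeing the data, 1099 genes were higher and 953 lower than in native cells. Without the 3 members rich in fibroblast UMIs the counts were 950 and 1801 against other graft barcodes and 1075 and 918 against native cells. Scrublet called 3 graft barcodes by itself, so the highest scores were removed as an alternative, 12 in the graft, of which 2 were members. Depth limits the native side most: 2472 native endothelial cells had under 5000 UMIs.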
